A study of Macaca fascicularis with 3 samples.

Results

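The mature miRNAs mfa-miR-192-5p, mfa-miR-194-5p and mfa-miR-215-5p, written below without the species prefix, were examined in small RNA sequencing libraries of the kidney cortex of 3 untreated (naïve) cynomolgus monkeys (Macaca fascicularis), with 1 library per animal. The 3 were chosen by name, as every miRNA whose stem is miR-192, miR-194 or miR-215 in the deposited table of counts, and they are 3 of 432 listed mature miRNAs. The animals were 2 to 3 years of age. The labels give no treatment, genotype or other condition that separates them, so all libraries form 1 group and the comparisons are between miRNAs and between animals. The rule takes names of any arm and found only 5p names, so the 3p arms could not be analysed here.

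Mature miRNAs are short RNAs of about equal length cut from a hairpin, and they lower the output of messenger RNAs that pair with the seed near their 5′ end. miR-192 and miR-215 carry the same seed and resemble each other along most of their length, whereas miR-194 has an unrelated seed. In the human genome miR-194 is encoded by a pair of hairpins, of which one lies beside the miR-192 hairpin and the other beside the miR-215 hairpin, so the mature miR-194 can come from either cluster. These clusters are known for their expression in epithelia of the gut, liver and kidney, where hepatocyte nuclear factors activate them, and for induction by p53. In kidney, miR-192 has been studied most in connection with TGF-beta signalling, the ZEB repressors and fibrosis. Each of the 3 is paired in the authors' table with the human miRNA of the same name.

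Listed miRNAs received 4305977 counts in the library of animal 1, 4707892 in animal 2 and 3957188 in animal 3. Levels are given as CPM, counts per 1000000 listed counts of the same library. Mature miRNAs have similar lengths, so no scaling by length was applied. Capture and ligation of small RNAs differ between sequences, and their part in the order of the levels was not tested. Each library comes from a separate animal, but differences between the animals and differences between their library preparations cannot be told apart. In pieces of tissue, a smaller number of cells that make a miRNA and less of it per cell cannot be told apart either.

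miR-194-5p, the member that both clusters can supply, was the most abundant of the 3. It had 21089 counts in animal 1, 20891 in animal 2 and 20777 in animal 3, or 4898, 4437 and 5250 CPM. The mean was 4862 CPM ± 408 (SD, n = 3), with the highest level in animal 3 and the lowest in animal 2. It ranked 39 of 432 by mean CPM and stood at ranks 40, 42 and 36 in the single libraries.

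miR-192-5p, the member most studied in renal fibrosis, lay close below. Its counts were 20150, 18065 and 17251 in animals 1, 2 and 3, or 4680, 3837 and 4359 CPM. The mean was 4292 CPM ± 425 (SD, n = 3). Animal 2 was again the lowest, and the ranges of miR-192-5p and miR-194-5p over the animals overlapped. It ranked 42 by mean CPM and 41, 44 and 40 in the single libraries.

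miR-215-5p, which shares the seed of miR-192-5p, was present at a far lower level. It had 104, 84 and 58 counts in animals 1, 2 and 3. These correspond to 24.2 CPM in animal 1, with an exact Poisson 95% interval of 19.7 to 29.3. The levels were 17.8 CPM (14.2 to 22.1) for animal 2 and 14.7 CPM (11.1 to 18.9) for animal 3. The mean was 18.9 CPM ± 4.83 (SD, n = 3), at rank 270 of 432 by mean CPM. The interval of animal 1 overlapped that of animal 2 and lay above that of animal 3. All intervals given here cover counting error only, because they are computed from the counts of single libraries. The reads carry no molecular identifiers, so the counts are of reads and not of molecules.

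**Figure D1:**
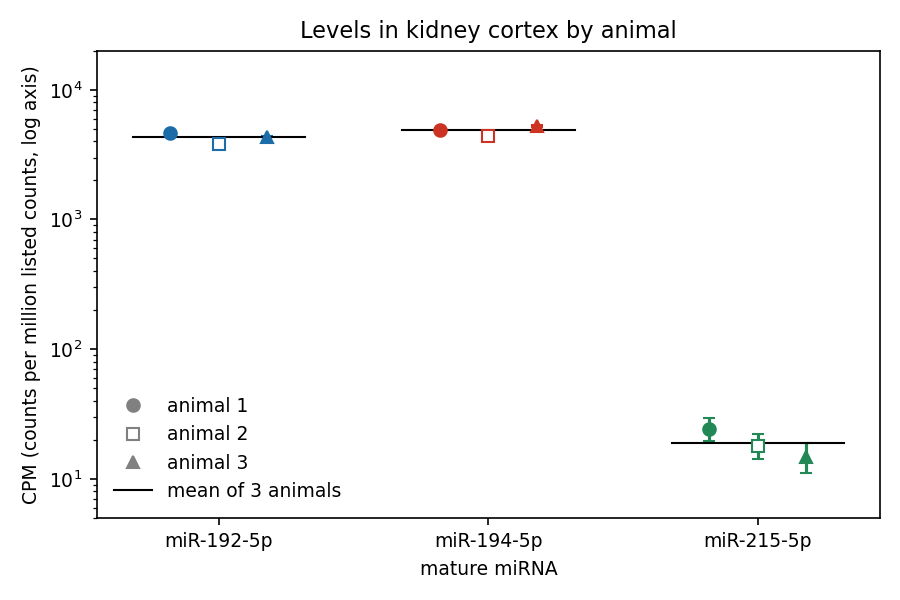
Level of each miRNA (CPM, log axis) in animals 1, 2 and 3, with exact Poisson 95% intervals as bars and the mean of 3 animals as a black line. miR-192-5p and miR-194-5p lie between 3837 and 5250 CPM in every animal, and miR-215-5p lies between 14.7 and 24.2 CPM.

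Together the 3 miRNAs took 0.960% of the listed counts in animal 1, with a Wilson 95% interval of 0.951 to 0.969. The share was 0.829% (0.821 to 0.837) for animal 2 and 0.962% (0.953 to 0.972) for animal 3. The mean share was 0.917% ± 0.0762 (SD, n = 3). The share of animal 2 lay below those of animals 1 and 3 by more than counting error, while the intervals of animals 1 and 3 overlapped. Within the set, miR-194-5p made up 51.0%, 53.5% and 54.6% of the counts in animals 1, 2 and 3, miR-192-5p made up 46.8% ± 1.77 (SD, n = 3) and miR-215-5p 0.206% ± 0.0502.

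**Figure D2:**
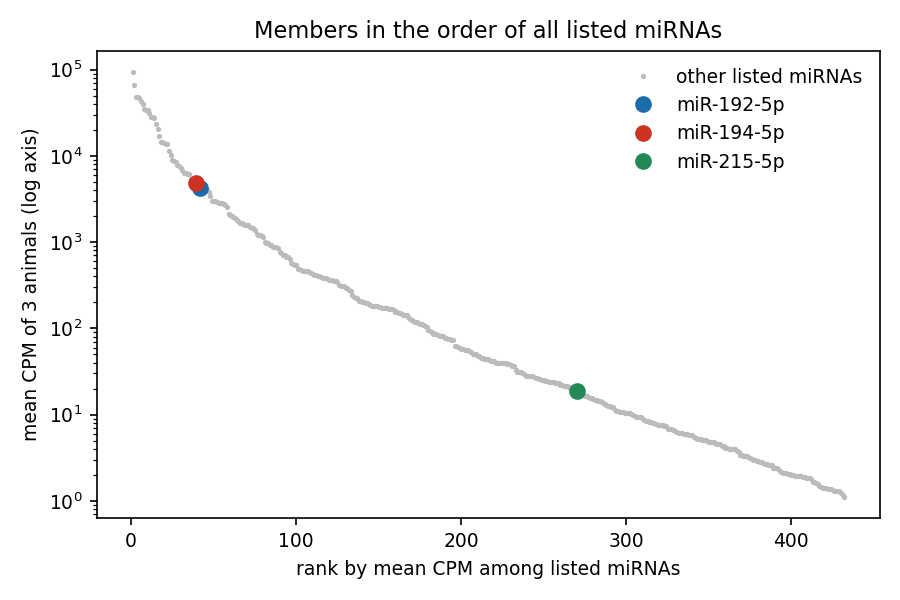
Mean CPM of 3 animals (log axis) against the rank among the 432 listed miRNAs, with grey points for the other miRNAs. miR-194-5p at rank 39 and miR-192-5p at rank 42 sit near the upper end, and miR-215-5p sits at rank 270.

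The directly adjacent miRNAs in the order of levels kept no constant order with the members over the 3 animals. Directly above miR-194-5p stood miR-26b-5p, with a mean of 5094 CPM ± 403 (SD, n = 3), which exceeded it in 2 of 3 animals. Directly below stood miR-451, an erythroid miRNA, at 4552 CPM ± 759, which miR-194-5p exceeded in 2 of 3 animals. An exact permutation test that flips the sign of the log2 ratio of each animal gave a two-sided p of 0.5 for both comparisons, and 0.25 is the smallest that 3 animals allow. Next to miR-192-5p were miR-107-3p at 4374 CPM ± 3399 and miR-148a-3p at 4217 CPM ± 605. Their exact sign-flip permutation p were 1 and 0.75. miR-107-3p had 5920, 6724 and 477 CPM in animals 1, 2 and 3, so its mean was far from its level in animal 3. Of the names slightly farther off, miR-30e-5p at 5324 CPM ± 305 exceeded miR-194-5p in 3 of 3 animals, with a mean log2 ratio of miR-194-5p over it of -0.13 ± 0.040 (SD); these farther pairs were not tested. Around miR-215-5p lay miR-34a-3p, an arm of the p53-induced miR-34a hairpin, at 19.7 CPM ± 2.58, and miR-330-3p at 18.6 CPM ± 9.62, with exact permutation p of 0.5 and 1.

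Ratios of counts within a library need no scaling between libraries, and they were used to compare the 3 miRNAs with each other. miR-194-5p exceeded miR-192-5p in 3 of 3 animals, by a factor of 1.05 in animal 1, with an exact binomial 95% interval of 1.03 to 1.07. The factor was 1.16 (1.13 to 1.18) for animal 2 and 1.20 (1.18 to 1.23) for animal 3. The mean log2 ratio was 0.18 ± 0.10 (SD), with an exact sign-flip permutation p of 0.25, also after adjustment over the 3 pairs. The order of these neighbours was thus the same in every animal, although the difference is small beside their levels.

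Between the seed partners the gap was wide. miR-192-5p exceeded miR-215-5p by a factor of 194 in animal 1, with an exact binomial 95% interval of 160 to 237. The factor was 215 (174 to 270) for animal 2 and 297 (230 to 392) for animal 3. The mean log2 ratio was 7.85 ± 0.32 (SD), in the same direction in 3 of 3 animals, with an exact sign-flip permutation p of 0.25. Of the counts of both names, miR-192-5p held 99.5%, 99.5% and 99.7% in animals 1, 2 and 3. Reads that match both names perfectly, such as shortened ones, could be counted for either, and how the authors treated them is not given in the sources used here. A small fraction of miR-192-5p reads counted under the other name would therefore weigh on the level of miR-215-5p, and the size of that fraction was not tested.

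miR-194-5p exceeded miR-215-5p by factors of 203, 249 and 358 in animals 1, 2 and 3. The mean log2 ratio was 8.04 ± 0.42 (SD), with an exact sign-flip permutation p of 0.25. Set against the sum of miR-192-5p and miR-215-5p, the neighbours that accompany its hairpins, the count of miR-194-5p was 1.04, 1.15 and 1.20 times as large in animals 1, 2 and 3, with a mean of 1.13 ± 0.0815 (SD, n = 3). The counts do not show from which hairpin a miR-194-5p read came.

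Whether the ratios differed between animals was then tested with two-sided Fisher's exact tests on the counts of each pair of miRNAs in each pair of animals, with Benjamini-Hochberg adjustment over the 9 tests. Of these, 5 passed the threshold of 0.05. The ratio of miR-194-5p to miR-192-5p differed between all pairs of animals. It was 1.15 times as high in animal 3 as in animal 1 (95% interval from the counts 1.12 to 1.18, adjusted Fisher's exact p 5.81e-22) and 1.10 times as high in animal 2 as in animal 1 (1.07 to 1.14, adjusted Fisher's exact p 7.93e-12). Between animals 2 and 3 the factor was 1.04 (1.01 to 1.07, adjusted Fisher's exact p 0.0113).

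For the low member, the ratios were less precise. The ratio of miR-192-5p to miR-215-5p was 1.54 times as high in animal 3 as in animal 1 (95% interval 1.11 to 2.12, adjusted Fisher's exact p 0.0162). It did not pass the threshold between animals 1 and 2, where the factor was 1.11 (0.832 to 1.48, adjusted Fisher's exact p 0.510), or between animals 2 and 3, where it was 1.38 (0.989 to 1.93, adjusted Fisher's exact p 0.0823). The ratio of miR-194-5p to miR-215-5p was 1.77 times as high in animal 3 as in animal 1 (1.28 to 2.44, adjusted Fisher's exact p 0.00149), and the other pairs of animals gave adjusted Fisher's exact p of 0.187 and 0.0531. These tests set differences between single libraries against counting error and do not compare conditions.

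**Figure D3:**
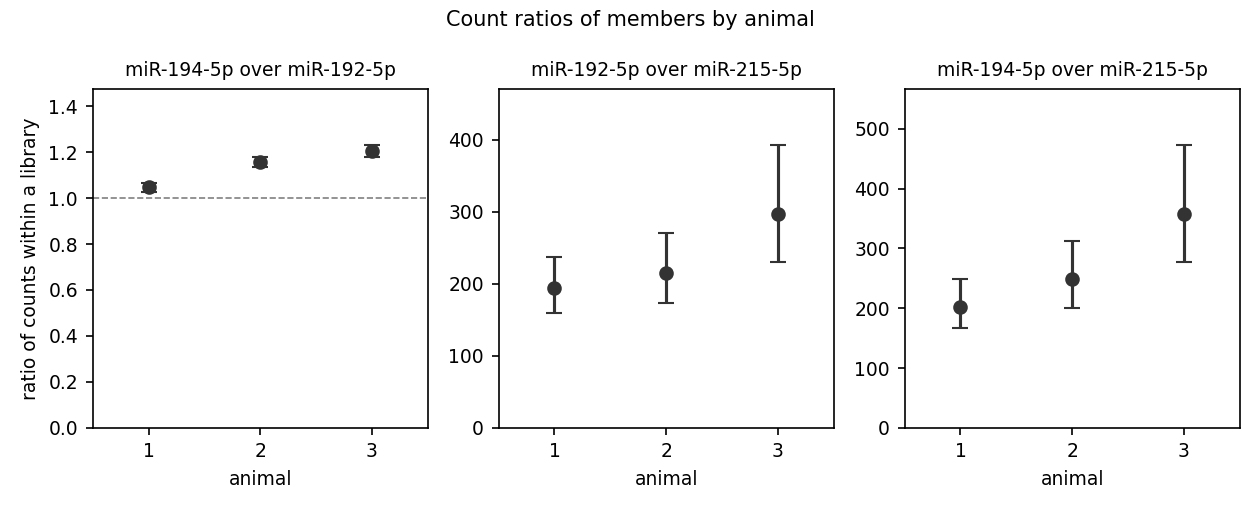
Ratio of the counts of 2 miRNAs within each library, by animal, with exact binomial 95% intervals; the dashed line marks a ratio of 1. The ratio of miR-194-5p to miR-192-5p is above 1 in all 3 animals and runs from 1.05 to 1.20, and the ratios over miR-215-5p are lowest in animal 1 and highest in animal 3.

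Levels were then compared between animals after scaling by the trimmed mean of M values (TMM), which gave miR-194-5p 4845, 4219 and 5583 CPM in animals 1, 2 and 3. On the same scale miR-192-5p had 4629, 3648 and 4636 CPM, and miR-215-5p 23.9, 17.0 and 15.6 CPM. miR-194-5p was highest in animal 3 and miR-215-5p in animal 1 with or without this scaling. miR-192-5p was nearly level in animals 1 and 3 after scaling, whereas with totals alone animal 1 was the higher.

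A chi-square test of equal levels in the 3 libraries was run for the 391 miRNAs averaging 10 counts or more, with Benjamini-Hochberg adjustment over all of them. It called 3 of 3 members different between libraries, and it called 80.6% of all tested miRNAs. The adjusted p was 1.83e-178 for miR-194-5p, 1.36e-151 for miR-192-5p and 0.0154 for miR-215-5p. The call for miR-215-5p was lost without animal 1, with an adjusted chi-square p of 0.664. Most miRNAs were called in these libraries, so the calls of the members say little about them in particular.

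By size, the differences were moderate. The highest animal exceeded the lowest 1.27-fold for miR-192-5p, 1.32-fold for miR-194-5p and 1.53-fold for miR-215-5p on the TMM scale. None of the 3 spanned more than 2-fold, against 39.9% of the tested miRNAs, whose median span was 1.71-fold. Of the 81 tested miRNAs with a mean of at least 1000 CPM, 23.5% spanned more than 2-fold, with a median of 1.40-fold. Of the 66 with 10 to 30 CPM, 40.9% did, with a median of 1.69-fold. In the library of animal 3, 22 of the 391 tested miRNAs lay more than 4-fold below both other animals and 2 more than 4-fold above both, while 0 lay that far below in animal 1 and 0 in animal 2. This library gave the highest of the 3 levels for miR-194-5p and the lowest for miR-215-5p. Without that animal 35 miRNAs spanned more than 2-fold, in place of 156. The spans of the 3 members stayed below 2-fold whichever animal was left out. This was bound to hold, because a span over 2 animals can hardly exceed the span over all 3.

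The SD of log2(TMM-scaled CPM + 1) over the animals was 0.20 for miR-192-5p, 0.20 for miR-194-5p and 0.31 for miR-215-5p, beside a median of 0.38 over the 391 tested miRNAs. Counting error alone would give about 0.011, 0.010 and 0.16. The abundant members thus spread far beyond counting error, while for miR-215-5p the counting error is of the same order as the spread. Abundant miRNAs as a whole spread less than rare ones. Among the 81 tested miRNAs with a mean of at least 1000 CPM the median SD was 0.25, and 27 had a lower SD than miR-192-5p and 28 a lower one than miR-194-5p. Among the 66 with 10 to 30 CPM the median was 0.37, and 24 had a lower SD than miR-215-5p. Both bands were chosen after the values were seen, and all 3 members lie below the median of their band. Their place among all tested miRNAs depends on which animals are used. With all 3, 19.7% of the tested miRNAs had a lower SD than miR-192-5p, 20.2% than miR-194-5p and 36.8% than miR-215-5p. Leaving out animal 1, 2 or 3 gave 41.7%, 7.77% and 51.5% for miR-192-5p. In the same order it gave 47.1%, 24.6% and 32% for miR-194-5p, which stayed below the median. For miR-215-5p it gave 12.5%, 46.9% and 63.8%. The biological coefficient of variation per miRNA from edgeR was 0.306 for both abundant members and 0.390 for miR-215-5p. The trend at the same abundance was 0.362, 0.360 and 0.466 for miR-192-5p, miR-194-5p and miR-215-5p. The estimate per miRNA is drawn toward this trend, so it is not the spread of that miRNA alone. In the same order, the SD of CPM without TMM scaling was 9.91%, 8.39% and 25.6% of the mean.

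**Figure D4:**
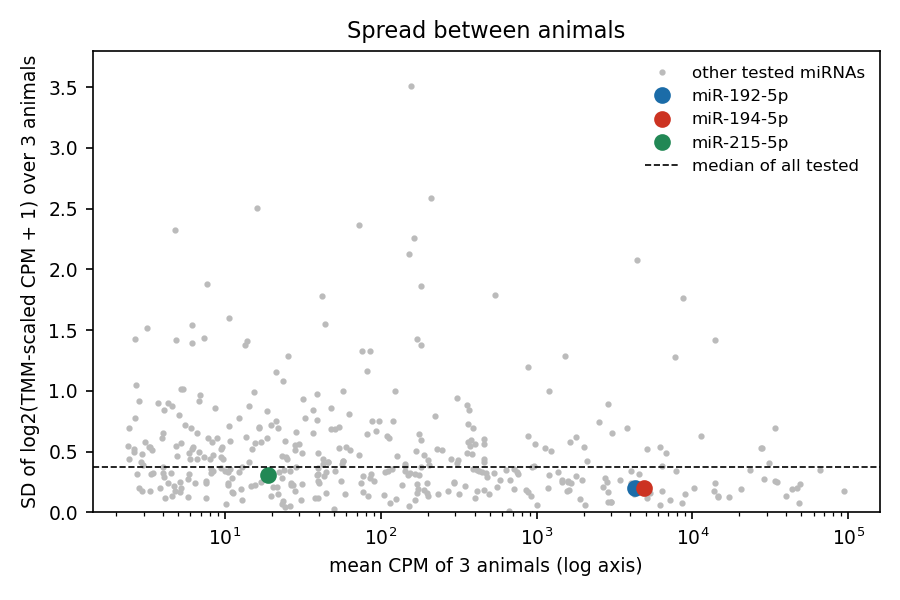
SD of log2(TMM-scaled CPM + 1) over 3 animals against mean CPM (log axis) for the 391 tested miRNAs, with the median of 0.38 as a dashed line. miR-192-5p and miR-194-5p lie at 0.20 and miR-215-5p at 0.31, all below the median when the 3 animals are used. With 1 animal left out, which is not drawn, the share of tested miRNAs with a lower SD ran from 7.77% to 51.5% for miR-192-5p. It ran from 24.6% to 47.1% for miR-194-5p and from 12.5% to 63.8% for miR-215-5p.

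The course of each member over the animals was compared with that of the other miRNAs by the root mean square difference of their log2 deviations from the own mean, over 3 libraries. Candidates were miRNAs with a mean of at least 100 CPM. With 3 points many profiles are close by nature, and all share the same libraries and scaling. The profile of miR-192-5p was 0.11, -0.23 and 0.12 in animals 1, 2 and 3, that of miR-194-5p was -0.0016, -0.20 and 0.20, and that of miR-215-5p was 0.35, -0.12 and -0.23. The first of these dips in animal 2, the next is also lowest there but highest in animal 3, and the last stands high in animal 1 alone.

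miR-194-5p stood at position 7 among 178 candidates in likeness to miR-192-5p, at a difference of 0.085, with 0.28 as the median over the candidates. Closest to miR-192-5p were miR-196b-5p (0.054), miR-195-5p (0.054), miR-148b-3p (0.057), miR-148a-3p (0.078) and miR-25 (0.081). For miR-194-5p the closest were miR-29a-3p (0.031), miR-30e-5p (0.032), miR-30c-5p (0.034), miR-25 (0.034) and miR-151-5p (0.041), with miR-192-5p at position 15. For miR-215-5p they were miR-222-3p (0.015), miR-374a-5p (0.025), let-7b-5p (0.029), miR-1-3p (0.049) and miR-495-3p (0.058). The abundant members were at positions 44 (miR-192-5p, 0.25) and 71 (miR-194-5p, 0.33) from miR-215-5p. The counting error of miR-215-5p, about 0.16 on this scale, is larger than the differences among its closest names, so their order is not resolved.

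**Figure D5:**
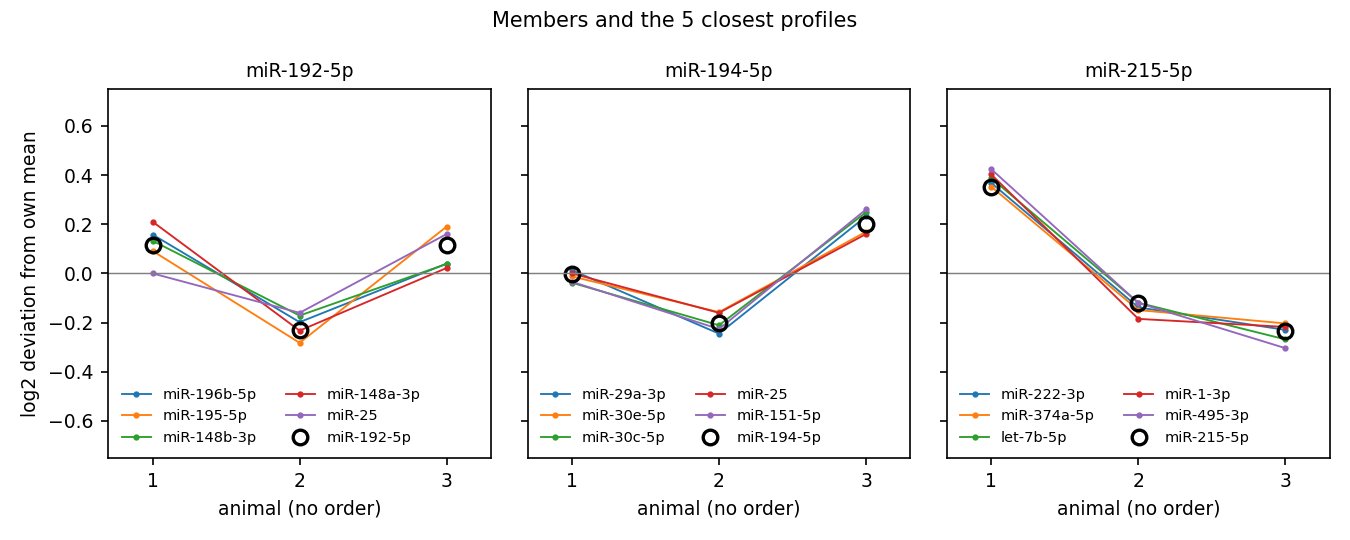
Log2 deviation of each miRNA from its own mean over 3 animals (TMM-scaled CPM + 1), with the member as open circles and its 5 closest miRNAs as lines; the animals have no order. miR-192-5p and miR-194-5p are lowest in animal 2 at -0.23 and -0.20, and miR-215-5p is highest in animal 1 at 0.35.

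Set beside other miRNAs known from kidney epithelium, the 3 were a small part of the total. Names of miR-204 and miR-211, of which miR-204-5p is a known kidney tubule miRNA, took 4.77%, 5.43% and 4.38% of the counts in animals 1, 2 and 3. They held 4.97, 6.55 and 4.55 times the counts of the 3 members, in the same direction in 3 of 3 animals, with a mean log2 ratio of members over them of -2.40 ± 0.27 (SD) and an exact sign-flip permutation p of 0.25. The miR-200 family, which keeps epithelial cells from a mesenchymal state, held 2.18, 2.49 and 1.69 times the counts of the members, with a mean log2 ratio of -1.07 ± 0.28 and the same exact permutation p of 0.25. Its miR-200b and miR-141 are not among the listed miRNAs, so this total holds only miR-200a, miR-200c and miR-429 names.

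In the other kidney list, which adds the miR-30, miR-10 and miR-196 names, 21 miRNAs were tested, 19 were called different between libraries and 7 spanned more than 2-fold, beside 80.6% and 39.9% of all tested miRNAs. Its median SD was 0.35. miR-10b-5p led it with a mean of 93794 CPM ± 6198 (SD, n = 3).

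Lists that share a known regulator or process with the 3 members gave the following. Of the p53-regulated list, 4 of 6 stems were listed, and 5 of 6 tested names were called different between libraries, beside 80.6% of all tested miRNAs. Its miR-34a-5p, the classical p53 target, had 1619, 1918 and 1218 CPM in animals 1, 2 and 3, so it was highest in animal 2, where miR-192-5p and miR-194-5p were lowest. The tested names of this list did not move together. By CPM, miR-107-3p was also highest in animal 2, at 6724 CPM, with 5920 CPM in animal 1 and 477 CPM in animal 3. The most abundant name, miR-145-5p, and miR-107-5p were highest in animal 3, and miR-145-3p and miR-34a-3p in animal 1. Of the TGF-beta and fibrosis list, 9 of 13 stems were listed. In it 11 of 14 tested names were called, again near the 80.6% of all tested miRNAs, with a median SD of 0.22. miR-29b-3p, an inhibitor of collagen expression, was its most abundant name at 39929 CPM ± 3192 (SD, n = 3), and miR-21-5p, which rises in injured kidney, had 14656 CPM ± 481. miR-192-5p lay below both in every animal.

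The members are also known from gut and liver. Of the 6 stems of the gut, liver and pancreas list, 2 were listed, and both were low here. Its miR-216a, miR-216b, miR-217 and miR-802 are not among the listed miRNAs. miR-122a-5p, the listed name for the hepatocyte miRNA miR-122, stood at rank 329 of 432 with 8.82, 7.01 and 4.04 CPM in animals 1, 2 and 3. miR-375, known from islet and gut endocrine cells, stood at rank 284 and had 12.8, 24.4 and 5.81 CPM. miR-192-5p and miR-194-5p exceeded both by more than 100-fold in every animal, while miR-215-5p was of the same order, above miR-375 in animals 1 and 3 and below it in animal 2.

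Markers of other cell types were measured in the same libraries. The epithelial list, carried by miR-200a-3p and miR-429-3p, took 2.09%, 2.07% and 1.63% of the counts in animals 1, 2 and 3, and 4 of 4 tested names were called different, beside 80.6% of all tested miRNAs, the background for each such count here. The vascular list took 7.81%, 7.17% and 8.52%, with 5 of 5 called, and the erythroid list took 0.502%, 0.437% and 0.576%, with 4 of 4 called. The sums of both lists were lowest in animal 2 and highest in animal 3, as miR-194-5p was, but their names did not move together. miR-126, the endothelial miRNA, was highest in animal 1 at 49842 CPM and lowest in animal 2 at 39923 CPM. miR-145-5p of smooth muscle was lowest in animal 1. The most abundant erythroid name, miR-451, had 4369, 3900 and 5386 CPM in animals 1, 2 and 3, the same order as miR-194-5p. The erythroid miR-144 was lowest in animal 3, and miR-486-5p and miR-486-3p in animal 1. The leucocyte list took 0.162%, 0.173% and 0.152%, with 4 of 4 called. The muscle list took 0.0562%, 0.0399% and 0.0363%, with 3 of 4 called. Its sum was highest in animal 1, as miR-215-5p was, through miR-1-3p, whereas miR-133b-3p, miR-133a and miR-206 were highest in animal 3. The neuron list took 0.0123%, 0.0131% and 0.0107%, with 3 of 4 called. The part of the cell mix in the differences of the members between animals was not tested.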

How the data were processed

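Reads were mapped by the authors to M. fascicularis miRNAs with 0 mismatches, and miRNAs with at least 15 reads were kept, per the file headers; the smallest sum over the libraries is 15. The deposited raw table holds whole-number read counts for 432 mature miRNAs. The second deposited table holds an edgeR-normalized signal per the file headers; it equals the raw count times 0.989, 0.951 and 1.06 in animals 1, 2 and 3 and is not scaled for library size. Aligner, miRNA release, trimming and treatment of multiply matching reads are not given in the sources used here. Per the labels' protocols, RNA came from 25 to 30 mg of cortex.

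CPM, shares and ratios were computed from raw counts. TMM factors over all listed miRNAs came from edgeR 4.0.16 (R 4.3.3). Dispersions came from its estimateDisp with an intercept only over the 391 miRNAs averaging 10 counts or more. For the dispersions the TMM factors were computed over those 391 miRNAs, so they differ slightly from the factors behind the levels and tests. The chi-square test was checked on simulated data. Exact tests used scipy 1.17.1, and all tests are two-sided. Alternatives were DESeq2 1.42.0 size factors, totals alone, the authors' signal, other minimums and pseudocounts, and leaving out each animal.

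The members, lists and tests were chosen with earlier results of these data known. Named are the members, their neighbours in level, the 5 closest profiles each, and some names of the lists. The planned comparison of hairpin arms and of mature sequences was not made, since the rule found 5p names only and the sequences were not used here. Depth per library was 3957188 to 4707892 listed counts.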

Additional observations from a re-analysis of the deposited data

How the results depend on the processing

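Of 125 recalculated values, 116 kept their call or stayed within the spread between animals or within 1.5 times for counts. Some of these could not have moved, so the 116 overstates what was tested. Leaving out 1 of 3 animals cannot shift a mean level or share beyond the SD between animals. The authors' signal over its column sum returned the CPM of miR-192-5p (4292) and miR-194-5p (4862). A mean count of at least 100 left their spans at 1.27-fold and 1.32-fold. With the 10 most abundant miRNAs left out of the total, the combined share of 0.917% became 1.80%, since the total is smaller. The count of all miRNAs spanning more than 2-fold, 156, was 82 at a mean count of at least 100, where fewer are tested, and 35 to 124 with an animal left out (35 without animal 3, 92 without animal 1). The SD of log2 levels ranged, with an animal left out, from 0.054 to 0.24 for miR-192-5p, from 0.14 to 0.29 for miR-194-5p and from 0.081 to 0.36 for miR-215-5p, the lowest being those without animal 2, animal 3 and animal 1. Scaling by totals alone gave 0.12 for miR-194-5p in place of 0.20. TMM scaling lowered its lowest level, in animal 2, from 4437 to 4219 CPM. It raised the highest, in animal 3, from 5250 to 5583 CPM. Why the TMM factors differ between the libraries was not tested. The adjusted chi-square p of miR-215-5p ranged from 0.0292 to 0.664 with an animal left out, and 3 or 2 of the 3 members were called. With its 58 to 104 counts, depth limits what can be said of miR-215-5p. The order of the 3 miRNAs was the same under every pseudocount and with each animal left out, where 2 animals allow no exact sign-flip p below 0.5. Neither check could have changed it. Each pair had the same order in 3 of 3 animals, and a pseudocount added to both levels cannot reverse an order. No paired analysis was possible because all libraries belong to 1 group.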
